A study of Homo sapiens with 42 samples.

Results

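RUNX1 and the gene-poor sequence upstream of it on human chromosome 21 were examined through the chromatin loops that touch chr21:34600000-36100000 (GRCh38). A loop here is a pair of 10 kb anchors on the same chromosome whose contacts were counted by in situ Hi-C, which ligates and reads DNA ends lying close together in crosslinked nuclei. A loop was taken as a member when the deposited start of either anchor lay in the interval. Of 33914 loops in the table, 34 met this rule, and 30 of them had both anchors inside. All 34 passed the filter on low counts, as did 24132 loops of the whole table.

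The cells were K562, an established human leukemia line labelled wild type, grown in RPMI with serum. The 3 groups are exposures of 0 h, 6 h and 72 h to 25 nM PMA, a phorbol ester that activates protein kinase C, with medium changed after 24 h and 48 h. In this line PMA drives differentiation towards a megakaryocyte-like state. The 42 samples (14 per time) are technical replicates and sequencing runs of 4 biological replicates per time, which gave 12 libraries. The labels name no vehicle control, so time in culture and PMA cannot be told apart. A Hi-C count holds no expression, so neither the identity of the cells nor RUNX1 RNA was checked here. Nor can a loop present in fewer cells be told apart from a loop weaker in every cell.

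RUNX1 is the DNA-binding subunit of core binding factor and pairs with CBFB to regulate blood genes. It is required for definitive blood formation and for the maturation of megakaryocytes, and inherited loss of a copy causes a familial platelet disorder. Transcription starts at a distal promoter, P1, or a proximal promoter, P2, which give proteins with different N-terminal ends, and enhancers are known in the large intron between them and in flanking sequence. Loops of this kind join promoters to enhancers or join bound CTCF and cohesin sites, and the deposited counts do not tell these kinds apart.

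RUNX1 lies on the minus strand at chr21:34787801-35049302 and spans 261.5 kb in RefSeq (GRCh38.p14), so sequence upstream of it has higher coordinates. P1 is taken as the gene's 5′ end at position 35049302, and P2 as the start site of the RefSeq promoter table, position 34888699, which is 160.6 kb from P1. P2 lies in the anchor chr21:34880001-34890000. The adjoining anchor, chr21:34890001-34900000, begins 1302 bp upstream of P2 and carried the most loops, 6. The 250 bases before 3 of the start sites that lie in anchors are shown. They are P2 (chr21:34888700-34888949, minus strand), the long noncoding RNA gene LINC01426 on the other side of RUNX1 (chr21:34745575-34745824, plus strand) and SETD4, a SET-domain gene at the far upstream end (chr21:36060527-36060776, minus strand). A loop at each of them passed the test, but so did loops at the start sites of RUNX1-IT1, KCNE1, KCNE2 and RCAN1. Capitals mark a match to the ETS-family letters CCGGAA on either strand.
RUNX1 P2: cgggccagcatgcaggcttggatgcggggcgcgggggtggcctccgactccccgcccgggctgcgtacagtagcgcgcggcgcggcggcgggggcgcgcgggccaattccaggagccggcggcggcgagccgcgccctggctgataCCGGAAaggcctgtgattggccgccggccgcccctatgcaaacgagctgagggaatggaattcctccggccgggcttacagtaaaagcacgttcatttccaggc
LINC01426: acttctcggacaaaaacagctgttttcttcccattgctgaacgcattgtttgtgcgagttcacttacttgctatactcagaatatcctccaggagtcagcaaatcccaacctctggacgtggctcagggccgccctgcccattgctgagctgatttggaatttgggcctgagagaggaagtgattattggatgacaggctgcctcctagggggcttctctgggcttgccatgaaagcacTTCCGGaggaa
SETD4: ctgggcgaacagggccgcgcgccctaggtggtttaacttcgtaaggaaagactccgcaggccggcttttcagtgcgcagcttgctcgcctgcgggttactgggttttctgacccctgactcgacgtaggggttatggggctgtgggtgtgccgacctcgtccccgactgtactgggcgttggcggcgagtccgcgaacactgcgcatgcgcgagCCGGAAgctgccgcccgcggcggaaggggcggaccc

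In the 300 bases of the table (250 before and 50 after the start), each of these promoters held 1 ETS match, against 17.2% of 35116 promoters with at least 1. None of the 3 held the letters TGTGGT of RUNX factors (13.1% of promoters), AGATAA of GATA factors (10.3%) or TGANTCA of AP-1 (7.71%), searched on both strands with no overlap between matches of different motifs here. G and C made up 72.0% of the P2 sequence, 65.7% of SETD4 and 51.3% of LINC01426, beside a median of 58.7%. Another start site at a called loop, that of RUNX1-IT1 inside the RUNX1 intron, had 27.0% G and C and no match. The start sites of KCNE1, KCNE2 and RCAN1, also at called loops, are not scored here, so no excess of matches is read from the 3 shown. A match describes letters only.

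The 34 loops were 40 kb to 1660 kb long (median 420 kb, against 290 kb over all tested loops). They used 40 anchors, of which 11 held an end of a gene, 7 a start site, and 13 no protein-coding or long noncoding gene. At 7 anchors 3 or more loops met. Raw counts per library ran from 5 to 183 contacts, for which the exact 95% Poisson intervals are 1.62 to 11.7 and 157 to 212, and a count of 33 has an interval of 22.7 to 46.3. Intervals cover counting error only. Values below are normalized counts, meaning contacts per 1000000 in tested loops after TMM scaling; the mean over the libraries of a loop ran from 10.1 to 111 in the region, with a median of 33.1, near the 29.4 over all tested loops.

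Library totals ran from 736929 to 1472197 contacts. The region took 0.127% to 0.143% of the contacts of each library, with means of 0.135% ± 0.0055 at 0 h (SD, n = 4), 0.134% ± 0.0035 at 6 h (n = 4) and 0.133% ± 0.0059 at 72 h (n = 3). The ranges of the 3 times overlapped. Between replicates 3 and 4 of 72 h no difference beyond sampling noise was found: their chi-square over its degrees of freedom was 1.00 (p = 0.367), against 1.06 to 1.16 for the other 72 h pairs. Replicates 3 and 4 were also the closest pair at 0 h (1.02, p = 0.0253; other pairs 1.09 to 1.20) and at 6 h (1.02, p = 0.00621; other pairs 1.10 to 1.27), but there they differed. Means ± SD therefore treat the 72 h pair as 1 sample (n = 3 at 72 h), whereas each entered the model as its own library. Replicates 1 and 2 had 3 technical replicates and replicates 3 and 4 had 2, so values within each of these sets are given where they matter. The labels call the replicates biological without saying whether they are separate cultures.

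After 72 h, loops of the RUNX1 region had changed in both directions. With edgeR's quasi-likelihood test at an adjusted p of 0.05, 8 of the 34 loops were gained and 7 lost against 0 h (15 in all). Over all tested loops 33.6% were called (16.7% gained and 16.9% lost), and among the other 249 tested loops of chromosome 21 it was 34.5%; the 44.1% of the region was not tested against these shares. The median log2 fold change was 0.05 for the members and 0.01 for all tested loops. The 0 h and 72 h libraries did not overlap for 14 loops of the region (41.2%, against 28.3% of all tested loops). All 15 calls had the same direction within replicates 1 and 2 and within replicates 3 and 4, where 7 and 8 loops passed the test with fewer libraries. The calls were made from these same libraries, so the shared direction is no separate support. After a correction for loop length the split was 5 gained and 7 lost.

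**Figure D1:**
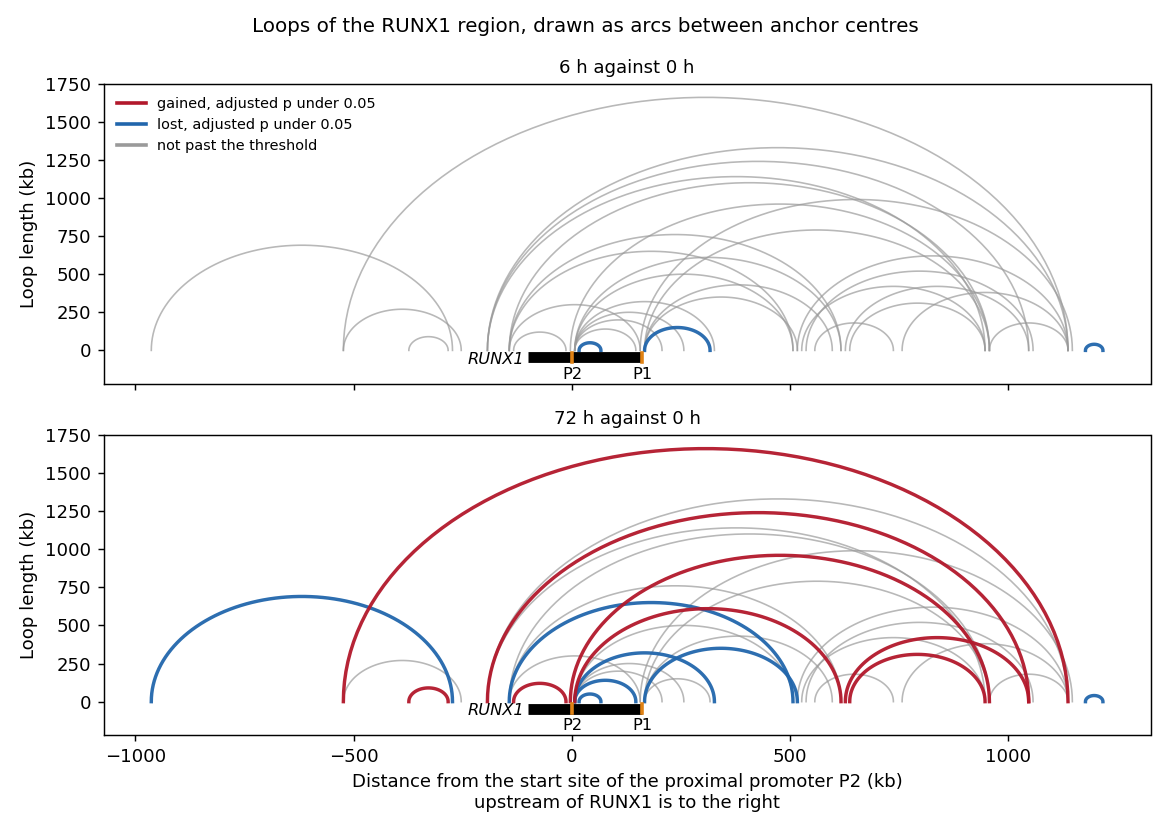
Arcs join the anchor centres of each loop of the RUNX1 region, placed by distance in kb from P2 (x axis) and as high as the loop is long in kb (y axis), at 6 h (top) and 72 h (bottom) against 0 h. Red arcs passed the edgeR test as gained, blue as lost and grey did not pass; 3 arcs are blue at 6 h, and 8 are red and 7 blue at 72 h.

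Near P2 the loops changed in opposite directions after 72 h. Only 1 of them, loop32175, uses the anchor that holds P2 itself, and it was gained. Of the 9 loops with an anchor centred within 20 kb of P2, 3 were gained (to sequence 960 kb and 610 kb upstream, and to LINC01426) and 3 were lost (loops of 50 kb, 140 kb and 320 kb that reach upstream, the first and second wholly inside RUNX1), and 3 did not pass. Over all tested loops 16.7% were gained and 16.9% lost. DESeq2, in place of edgeR, called 1 of them gained and 1 lost.

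The gained loop at P2 itself, loop32175, joins the anchor that holds P2 to chr21:35840001-35850000, which is 960 kb upstream in sequence with no annotated gene. Its normalized counts in replicates 1 to 4 were 11.6, 15.2, 23.8 and 18.2 at 0 h, 10.8, 14.0, 24.1 and 21.7 at 6 h, and 27.4, 27.1, 38.5 and 34.8 at 72 h. Every 72 h library lay above every 0 h and 6 h library, while 0 h and 6 h overlapped. The means were 17.2 ± 5.18 at 0 h (SD, n = 4) and 30.4 ± 5.42 at 72 h (n = 3). The edgeR fit, which is not the ratio of these means, gave a fold of 1.84 (log2 fold change 0.88 ± 0.20 SE, edgeR adjusted p = 0.000235). Counts were lower in replicates 1 and 2 than in 3 and 4 at every time, and the log2 fold change was 0.95 within the former and 0.74 within the latter.

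On the other side of P2, loop32174 joins an anchor inside RUNX1 (chr21:34870001-34880000) to the body of LINC01426, 120 kb away and downstream of RUNX1. It measured 51.4, 52.2, 53.9 and 53.4 at 0 h, 48.0, 63.5, 56.6 and 57.9 at 6 h, and 64.6, 64.3, 82.2 and 70.5 at 72 h. The 0 h libraries were nearly level and all lay below the 72 h libraries, and the rise was 0.40 ± 0.13 SE on the log2 scale (edgeR adjusted p = 0.0122). Without 0 h replicate 1 the adjusted p was 0.0506, and without 72 h replicate 3 it was 0.0804.

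The third gained loop near P2, loop32181, runs 610 kb from the anchor just upstream of P2 to chr21:35500001-35510000 inside LOC100506403. That long noncoding RNA gene covers much of the upstream sequence. Loop32181 had 13.8, 15.2, 12.5 and 25.0 at 0 h, 21.6, 20.6, 25.5 and 26.5 at 6 h, and 23.0, 15.1, 28.1 and 33 at 72 h. The times overlapped, and the gain (0.56 ± 0.21 SE on the log2 scale, edgeR adjusted p = 0.031) did not pass without 0 h replicate 1, 2 or 3 or 72 h replicate 3 or 4 (adjusted p of 0.0755 to 0.205), nor after the length correction (0.42, adjusted p = 0.12).

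The shortest loop near P2 was lost. Loop32182 spans 50 kb inside RUNX1, from chr21:34900001-34910000 to chr21:34950001-34960000, in the interval between the promoters. It was among the 3 loops with the highest mean counts and measured 106, 114, 133 and 106 at 0 h, 90.2, 85.0, 80.7 and 83.2 at 6 h, and 82.3, 76.3, 73.8 and 73.2 at 72 h. All treated libraries lay below all 0 h libraries. The mean fell from 115 ± 12.7 (SD, n = 4) to 84.8 ± 4.03 at 6 h (n = 4; log2 fold change -0.41 ± 0.12 SE, edgeR adjusted p = 0.0164) and 77.4 ± 4.47 at 72 h (n = 3; -0.56 ± 0.11 SE, edgeR adjusted p = 3.8e-05). The 6 h call did not pass without 0 h replicate 3 (adjusted p = 0.0813), with DESeq2 (0.0592) or after the length correction (-0.28, adjusted p = 0.149), and the 72 h call passed in each of these settings.

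A loop between anchors near P2 and P1, neither of which holds the promoter itself, also fell. Loop32176 joins the anchor just upstream of P2 to chr21:35030001-35040000, which holds the start of RUNX1-IT1 and lies within 20 kb of P1. Its normalized counts were 80.4, 76.9, 96.6 and 89.8 at 0 h, 78.4, 58.9, 72.2 and 78.4 at 6 h, and 69.9, 63.2, 62.4 and 66.9 at 72 h. The 0 h and 72 h libraries did not overlap (log2 fold change -0.36 ± 0.12 SE, edgeR adjusted p = 0.0169), while the 6 h value of -0.24 had an edgeR adjusted p of 0.264. Without 0 h replicate 3 the 72 h adjusted p was 0.0555, and with DESeq2 it was 0.059.

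From the same anchor upstream of P2, loop32179 reaches 320 kb to chr21:35210001-35220000, at the end of the noncoding gene LOC124905015. Counts were 34, 39.9, 36.4 and 33 at 0 h, 31.4, 24.3, 22.6 and 30.2 at 6 h, and 23.0, 24.1, 25.0 and 25.9 at 72 h. Both treated groups lay below the 0 h group, and the 72 h difference passed the test (log2 fold change -0.51 ± 0.18 SE, edgeR adjusted p = 0.0164; 0.0729 with DESeq2). The 3 loops of this anchor that did not pass had log2 fold changes of -0.34 (200 kb long), 0.00 (250 kb) and -0.32 (500 kb). For the 500 kb loop the replicate sets differed in direction. The value was 0.15 within replicates 1 and 2 (edgeR adjusted p = 0.692) and -0.89 within replicates 3 and 4 (edgeR adjusted p = 0.00588).

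**Figure D2:**
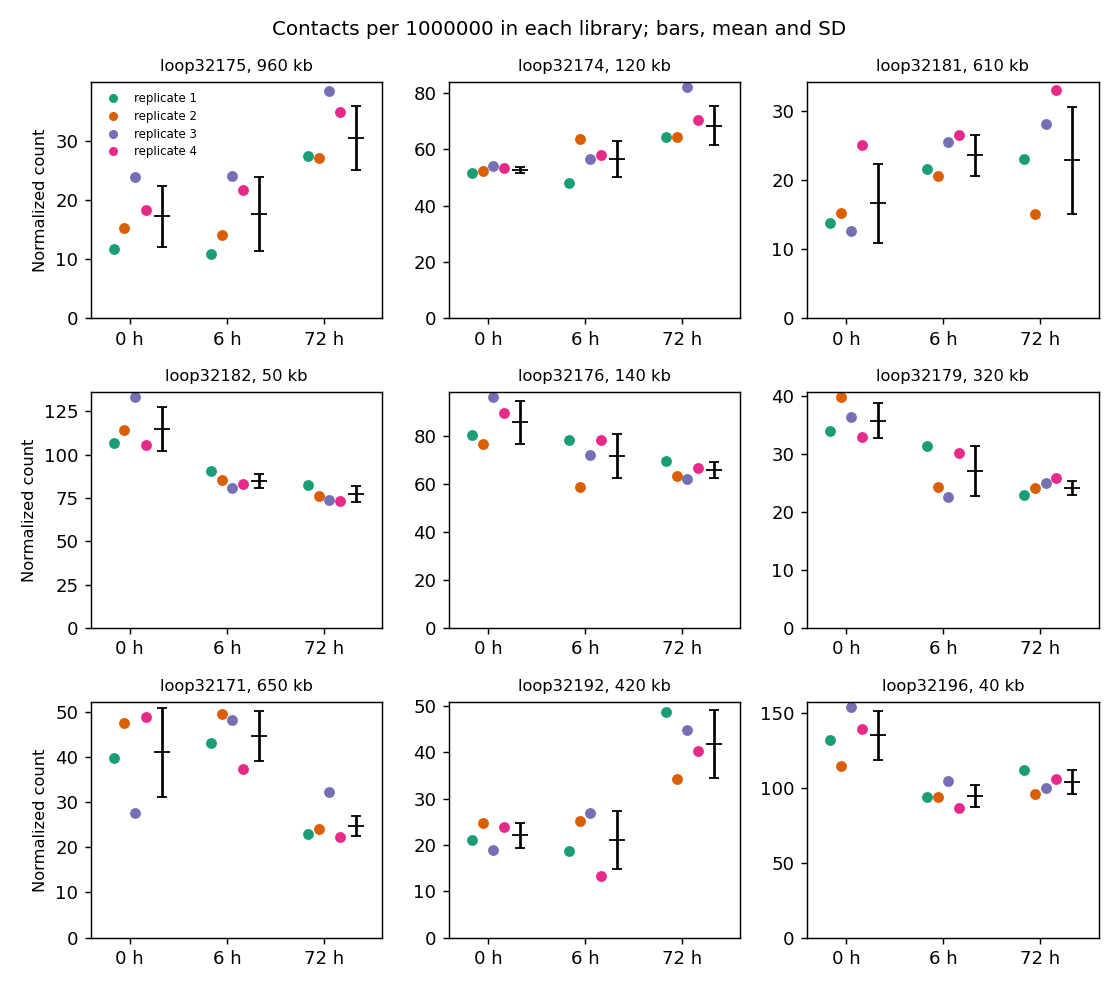
Each panel plots the normalized counts (contacts per 1000000, y axis from 0) of 1 loop in the 12 libraries by time (x axis), coloured by replicate; bars give the mean and SD beside them (n = 4 at 0 h and 6 h, n = 3 at 72 h). The top row shows the loops gained near P2, with loop32175 at 27.1 to 38.5 at 72 h above all earlier libraries. The middle row shows the loops lost near P2, and the bottom row loop32171, loop32192 and loop32196.

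Of the 7 loops with an anchor centred within 20 kb of P1 (loop32176 included), edgeR called 0 gained and 2 lost at 72 h. By an unadjusted p under 0.05, 1 was higher, and DESeq2 called 0 in either direction. With 16.7% of all tested loops gained and 16.9% lost, nothing particular to P1 is read from 7 loops.

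Loop32170 and loop32183 use the anchor that holds P1 itself. Loop32170 runs 300 kb from P1 across the whole gene to the LINC01426 start and measured 21.7, 21.8, 37.6 and 26.2 at 0 h, 36.3, 29.9, 24.1 and 27.7 at 6 h, and 28.3, 30.1, 40.6 and 41.1 at 72 h. The times overlapped and the 72 h log2 fold change of 0.41 ± 0.18 SE did not pass (edgeR adjusted p = 0.0658). Loop32183 runs 990 kb upstream to the end of SETD4 and was the faintest loop, with 8.69, 5.70, 15.1 and 9.10 at 0 h, 11.8, 15.9, 8.49 and 7.24 at 6 h, and 6.19, 13.1, 6.24 and 14.3 at 72 h. No direction was measurable at this depth (0.09 ± 0.28 SE, edgeR adjusted p = 0.84).

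The other 4 loops of P1 start in the next anchor, chr21:35050001-35060000, which begins 699 bp upstream of P1 and holds no gene. The loop to 350 kb upstream, loop32185, fell from 40.0 ± 7.69 at 0 h (SD, n = 4) to 27.1 ± 1.86 at 72 h (n = 3; log2 fold change -0.48 ± 0.17 SE, edgeR adjusted p = 0.0203), with no overlap; without 0 h replicate 2 the adjusted p was 0.107, and with DESeq2 0.0792. The loop to 150 kb upstream, loop32184, was lost at 6 h, from 58.7 ± 4.29 to 40.8 ± 5.22 (SD, n = 4 each; -0.52 ± 0.15 SE, edgeR adjusted p = 0.021), and stood at 50.3 ± 5.42 at 72 h (n = 3; -0.26, edgeR adjusted p = 0.137). That 6 h call did not pass without 0 h replicate 1 (0.0578), 6 h replicate 1 (0.0517) or 6 h replicate 2 (0.091), with DESeq2 (0.0964) or after the length correction (0.0522). The remaining pair, 430 kb and 790 kb long, had log2 fold changes of 0.26 and 0.45 at 72 h and did not pass.

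On the 3′ side of RUNX1, 4 loops start at the anchor chr21:34740001-34750000 with the LINC01426 start. The loop called lost against 0 h was loop32171, which passes over the whole of RUNX1 to chr21:35390001-35400000 in LOC100506403 and is 650 kb long. It measured 39.8, 47.5, 27.6 and 48.9 at 0 h, 43.1, 49.5, 48.1 and 37.4 at 6 h, and 23.0, 24.1, 32.2 and 22.3 at 72 h. The 72 h libraries lay below all 6 h libraries and below all but 0 h replicate 3. The log2 fold change was -0.67 ± 0.17 SE against 0 h (edgeR adjusted p = 0.00113) and -0.78 ± 0.17 SE against 6 h (edgeR adjusted p = 0.000439), and -0.83 against 0 h after the length correction. The loop of this anchor to chr21:35840001-35850000, loop32173, fell from 6 h to 72 h (-0.46 ± 0.15 SE, edgeR adjusted p = 0.0193). That call did not pass without 72 h replicate 1 (0.0558) or 2 (0.0716) or with DESeq2 (0.0873). Against 0 h loop32173 did not pass (-0.29, edgeR adjusted p = 0.122), although its 72 h libraries lay below all 0 h libraries. After the length correction it was called lost against 0 h (-0.64, edgeR adjusted p = 0.000425).

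Loops that share a far anchor could differ by their other end. The anchor chr21:35840001-35850000 made 4 loops, with log2 fold changes at 72 h of 0.88 with P2, 0.45 with the anchor above P1, -0.29 with the LINC01426 start and -0.14 with chr21:36020001-36030000. Of these only the loop with P2 passed the test against 0 h. In the same order the loops are 960 kb, 790 kb, 1100 kb and 180 kb long. After the length correction the values were 0.59, 0.24, -0.64 and -0.11. The loop with the LINC01426 start then passed as well (edgeR adjusted p = 0.000425). The anchor chr21:35500001-35510000 had 0.56 with the anchor just upstream of P2 and -0.10 with LINC01426, and chr21:35390001-35400000 had -0.32 and -0.67 with the same partners in that order. Differences between loops were not tested.

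Further from the promoters, loops inside the upstream sequence were also gained. Loop32192 joins chr21:35510001-35520000 in LOC100506403 to chr21:35930001-35940000, where no gene is annotated, over 420 kb. It measured 21, 24.7, 18.8 and 23.9 at 0 h, 18.6, 25.2, 26.9 and 13.3 at 6 h, and 48.7, 34.1, 44.7 and 40.2 at 72 h. All 72 h libraries stood above all others, and the mean rose from 22.1 ± 2.70 (SD, n = 4) to 41.7 ± 7.29 (n = 3). The fold from the edgeR fit, not the ratio of these means, was 1.82 (log2 fold change 0.87 ± 0.18 SE, edgeR adjusted p = 3.7e-05).

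The adjoining loop32193, from chr21:35520001-35530000 to chr21:35830001-35840000 over 310 kb, also rose. Its counts were 31.1, 34.2, 31.4 and 36.4 at 0 h, 41.2, 37.4, 34 and 22.9 at 6 h, and 40.7, 61.2, 44.7 and 63.4 at 72 h. The 0 h and 72 h libraries did not overlap (log2 fold change 0.63 ± 0.16 SE, edgeR adjusted p = 0.000694). A long loop from CLIC6, an intracellular chloride channel gene, ends at the same far anchor as loop32192: loop32168, 1240 kb long, measured 27.5, 36.1, 22.6 and 33 at 0 h, 38.2, 34.6, 35.4 and 33.8 at 6 h, and 48.7, 35.1, 58.2 and 38.4 at 72 h. It was called gained (0.56 ± 0.16 SE, edgeR adjusted p = 0.00485) although 72 h replicate 2 lay below 0 h replicate 2; without 72 h replicate 3 the adjusted p was 0.0611, and after the length correction the log2 fold change was 0.17 (adjusted p = 0.468).

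Loop32191, 180 kb long between chr21:35440001-35450000 and chr21:35620001-35630000, had 18.1, 34.2, 36.4 and 28.4 at 0 h, 43.1, 30.8, 35.4 and 48.3 at 6 h, and 29.2, 26.1, 18.7 and 20.5 at 72 h. At 6 h, 2 of the 4 libraries lay above the 0 h range. Neither time passed the test against 0 h (0.45, edgeR adjusted p = 0.112 at 6 h; -0.22, edgeR adjusted p = 0.377 at 72 h), whereas 72 h lay below 6 h in every library (-0.68 ± 0.18 SE, edgeR adjusted p = 0.00416).

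At the 3′ edge of the interval are RCAN1, a regulator of calcineurin, and KCNE1 and KCNE2, which encode accessory subunits of potassium channels. Loop32166 joins the neighbouring ends of KCNE1 and RCAN1 to the body of RCAN1 over 90 kb. It measured 70.3, 68.4, 76.5 and 65.9 at 0 h, 81.4, 88.8, 94.8 and 57.9 at 6 h, and 105, 113, 79.0 and 77.7 at 72 h. Every 72 h library exceeded every 0 h library, but the log2 fold change was 0.63 within replicates 1 and 2 and 0.14 within replicates 3 and 4 (0.41 ± 0.12 SE over all, edgeR adjusted p = 0.00557), and without 72 h replicate 2 the adjusted p was 0.0742.

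Loop32159, 690 kb long, reaches the RCAN1 start from chr21:33920001-33930000, outside the interval. Its counts of 19.6, 24.7, 16.3 and 15.9 at 0 h, 18.6, 21.5, 12.7 and 8.44 at 6 h, and 9.73, 13.1, 14.6 and 8.03 at 72 h were among the lower ones. The 72 h libraries lay below all 0 h libraries (log2 fold change -0.70 ± 0.24 SE, edgeR adjusted p = 0.0146). Without 0 h replicate 2 (0.0705), without 72 h replicate 4 (0.0668) or with DESeq2 (0.0804) the adjusted p was above 0.05.

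KCNE2 anchored 2 loops of very different length. Loop32164, 270 kb long and among the 3 with the highest counts, had 119, 111, 124 and 124 at 0 h, 97.1, 98.1, 112 and 106 at 6 h, and 107, 90.4, 111 and 96.4 at 72 h, and did not pass (-0.23 ± 0.11 SE at 72 h, edgeR adjusted p = 0.0876). Loop32165, at 1660 kb the longest, had 7.97, 8.54, 16.3 and 9.10 at 0 h, 4.90, 15, 12.7 and 12.1 at 6 h, and 15, 12, 20.8 and 18.7 at 72 h. The 72 h libraries overlapped only with 0 h replicate 3, which stood apart from its group. Its gain (0.63 ± 0.25 SE, edgeR adjusted p = 0.0407) did not pass without 0 h replicate 1, 2 or 4 or 72 h replicate 3 or 4 (adjusted p of 0.083 to 0.175), with the 72 h replicates 3 and 4 summed (0.0525), with DESeq2 (0.159) or without a filter (0.0741), and after the length correction it was 0.20 (adjusted p = 0.578).

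At the upstream edge, loop32196 is the shortest loop, 40 kb from the SETD4 start to chr21:36100001-36110000 over the noncoding gene CBR1-AS1. It had the highest mean count, with 133, 115, 154 and 139.9 at 0 h, 94.1, 94.4, 105 and 86.9 at 6 h, and 112, 96.4, 99.8 and 106 at 72 h. All treated libraries lay below all 0 h libraries, with log2 fold changes of -0.49 ± 0.11 SE at 6 h (edgeR adjusted p = 0.00169) and -0.36 ± 0.11 SE at 72 h (edgeR adjusted p = 0.00453). After the length correction the 72 h value was -0.18 (adjusted p = 0.18), and the 6 h value stayed called.

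At 6 h few loops of the region had moved. With edgeR 3 of 34 were lost (loop32182 in RUNX1, loop32184 above P1 and loop32196 at SETD4) and 0 were gained, which is 8.82% called, against 6.41% of all tested loops (2.34% gained and 4.07% lost). At an unadjusted p under 0.05, 5 were higher and 4 lower, and DESeq2 called 0 gained and 1 lost. The median log2 fold change was 0.08, against 0.01 over all tested loops. The 6 h and 72 h comparisons share the 0 h libraries, so their values for a loop are given side by side and not set against each other.

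The test of 72 h against 6 h does not use the 0 h libraries. It called 6 of 34 loops (17.6%), 3 gained and 3 lost, against 20.5% of all tested loops (10.7% gained and 9.81% lost), and after the length correction 3 and 5. The gained loops were loop32192 (0.94 ± 0.18 SE, edgeR adjusted p = 5.6e-05), loop32175 (0.84 ± 0.21 SE, edgeR adjusted p = 0.00147) and loop32193 (0.58 ± 0.16 SE, edgeR adjusted p = 0.00487; 0.055 without 6 h replicate 4 and 0.0514 with DESeq2). Their mean counts at 6 h, 21, 17.6 and 33.9, were near those at 0 h, 22.1, 17.2 and 33.3. The lost loops were loop32171, loop32191 and loop32173, described above.

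**Figure D3:**
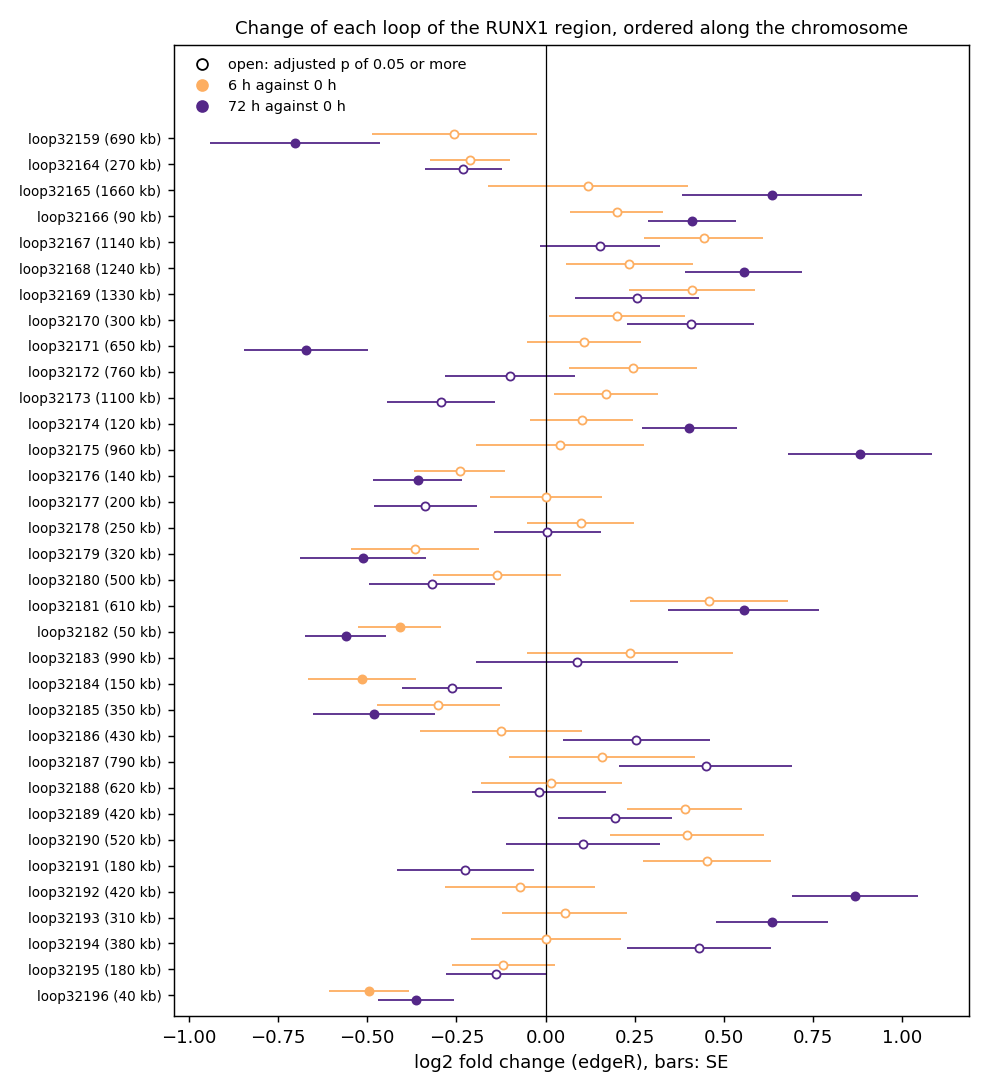
Log2 fold changes (x axis) of all 34 loops, named and ordered along the chromosome from the 3′ side of RUNX1 (top) to the upstream side, at 6 h (orange) and 72 h (purple) against 0 h; bars are SE, and filled points have an edgeR adjusted p under 0.05. At 72 h the points run from -0.70 (loop32159) to 0.88 (loop32175), and 3 are filled at 6 h against 15 at 72 h.

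Of the 34 loops, 18 were called in at least 1 of the 3 comparisons and 16 in none. Among the loops not yet given, 3 had no call but were higher at 6 h at an unadjusted p under 0.05: loop32167 and loop32169 from CLIC6 (log2 fold changes 0.44 and 0.41) and loop32189 within the upstream sequence (0.39). Their edgeR adjusted p-values were 0.0878, 0.153 and 0.132. At 72 h they stood at 0.15, 0.26 and 0.19. The other uncalled loops of the upstream sequence, loop32188, loop32190 and loop32194, had log2 fold changes of -0.02, 0.11 and 0.43 at 72 h (edgeR adjusted p of 0.953, 0.741 and 0.0875).

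Change at 72 h went with loop length over the whole table, and the region has many long loops. The median log2 fold change of all tested loops was -0.18 up to 100 kb, -0.09 from 100 kb to 200 kb, -0.01 to 400 kb, 0.11 to 800 kb, 0.33 to 1600 kb and 0.57 above. The members had medians of -0.36 (3 loops), -0.24 (6), 0.00 (7), 0.11 (11), 0.20 (6) and 0.63 (1) in the same classes. The median length was 515 kb among gained members and 320 kb among lost ones. Near P2 the loops of 50 kb to 500 kb upstream had log2 fold changes from -0.56 to 0.00. Those of 610 kb and 960 kb had 0.56 and 0.88, while the 120 kb loop to LINC01426 had 0.40. The change of loop32175 was above the median of its class, and after the length correction it was 0.59 (edgeR adjusted p = 0.0173).

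**Figure D4:**
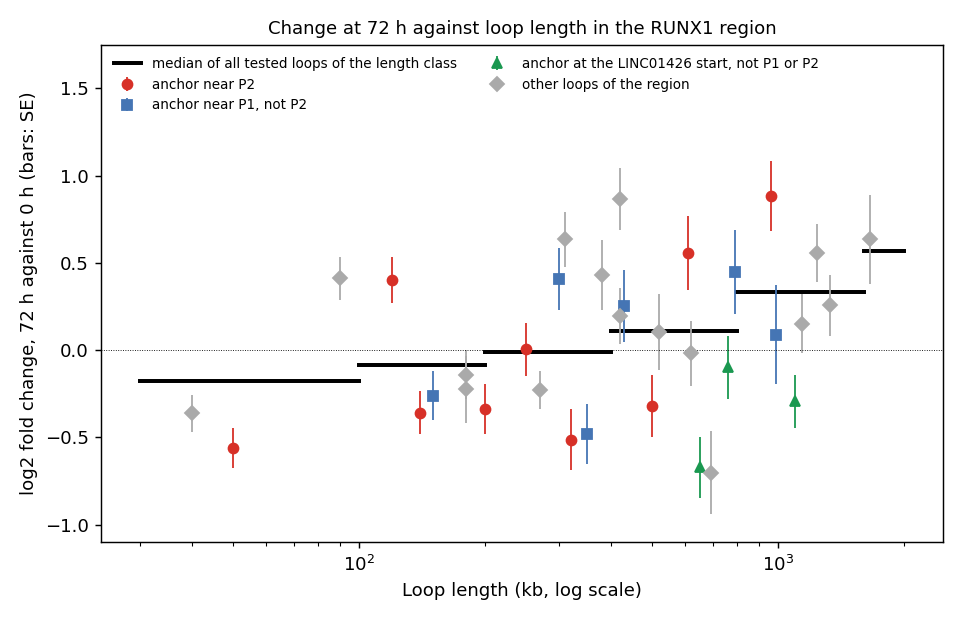
Log2 fold change at 72 h against 0 h (y axis, bars SE) of the 34 loops by length in kb (log x axis), with colours and shapes for loops near P2, near P1, at the LINC01426 start and elsewhere. Black lines give the median of all tested loops per length class, rising from -0.18 to 0.57; the loops near P2 lie on both sides of it.

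The authors' deposited table classes 2 loops of the region as gained, loop32175 and loop32192, 0 as lost and 32 as static. The authors' deposited table gives log2 fold changes at 72 h of 0.75 and 0.79 for these loops, with adjusted p-values of 0.0161 and 0.00346. In the authors' deposited table, adjusted p-values under 0.05 stand for 6 loops (loop32171, loop32175, loop32182, loop32192, loop32193 and loop32196), all of them called above, and the sign at 72 h was the same for 31 of the 32 loops with a deposited value. The adjusted p-values of the authors' deposited table are the same in its columns for both times.

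Loops at genes that work with RUNX1 were described from a list of 22 partners and megakaryocyte transcription factors, placed at a loop when an end of the gene lay in an anchor. Of the genes, 11 had a tested loop, 19 loops in all. At 72 h 3 were gained and 7 lost (median log2 fold change -0.23, against 0.01 over all tested loops, of which 16.7% were gained and 16.9% lost), and after the length correction 3 and 4. At 6 h 0 were gained and 4 lost with edgeR, against 2.34% and 4.07% of all tested loops (0 higher at an unadjusted p under 0.05, and 0 gained with DESeq2). From 6 h to 72 h 2 were gained and 0 lost, against 10.7% and 9.81% of all tested loops (0 lower at an unadjusted p under 0.05, and 0 lost with DESeq2).

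Also on chromosome 21 is ERG, an ETS factor of stem cells and megakaryocytes. Its loop32230 (anchors chr21:38360001-38370000 and chr21:39140001-39150000) measured 10.1, 10.4, 8.78 and 15.9 at 0 h, 15.7, 12.1, 12.7 and 13.3 at 6 h, and 33.6, 28.1, 43.7 and 31.2 at 72 h. All 72 h libraries were above the rest (1.45 ± 0.21 SE, edgeR adjusted p = 8.4e-09). By contrast loop14993 at MYB, a factor of proliferating progenitors, had 68.8, 63.6, 69.0 and 46.6 at 0 h, 49, 46.7, 41.0 and 24.1 at 6 h, and 46.0, 30.1, 34.3 and 25.9 at 72 h, so that all 72 h libraries were below all 0 h libraries (-0.84 ± 0.15 SE, edgeR adjusted p = 4.2e-06). Loop30701 at LYL1, a basic helix-loop-helix factor of blood stem cells, fell as well, with 216, 191, 177 and 175 at 0 h, 144, 125, 143 and 162 at 6 h, and 148, 131, 125 and 129 at 72 h (-0.52 ± 0.10 SE, edgeR adjusted p = 8.1e-06). Other loops of these genes did not pass at 72 h: loop32225 at ERG (0.19, edgeR adjusted p = 0.475), loop30704 at LYL1 (0.06, 0.721) and loop14996 at MYB (-0.26, 0.177). A further MYB loop, loop14998, fell (-0.70, edgeR adjusted p = 9.4e-06).

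A list of 22 genes named as RUNX1 targets had 9 genes with a tested loop and 15 loops, up to 5 of which share the IL3 anchor. It was drawn up for megakaryocytes and platelets. It also holds IL3, CSF2, CSF2RB, MPO, CEBPA and CD34, which are not particular to those cells, so its counts are not those of platelet genes alone. At 72 h 1 was gained and 5 lost (median -0.17; 16.7% and 16.9% of all tested loops), and after the length correction 2 and 4. Of the 5 lost loops, 3 share the IL3 anchor (loop12454, loop12455 and loop12458). At 6 h 1 was gained and 0 lost with edgeR, against 2.34% and 4.07% of all tested loops (1 lower at an unadjusted p under 0.05, and 0 lost with DESeq2). From 6 h to 72 h 1 was gained and 4 lost, against 10.7% and 9.81% of all tested loops. The gained loop, loop11295 at ITGA2, which encodes a subunit of the platelet collagen receptor, measured 39.1, 37.0, 27.6 and 35.2 at 0 h, 64.7, 55.1, 76.4 and 50.7 at 6 h, and 91.1, 91.4, 84.2 and 85.7 at 72 h. Its groups did not overlap (1.27 ± 0.14 SE at 72 h, edgeR adjusted p = 4.9e-14). Loop29289 at MYH10, a non-muscle myosin gene, was level at 6 h and fell by 72 h, with 23.2, 38.0, 27.6 and 36.4 at 0 h, 31.4, 27.1, 36.8 and 29.0 at 6 h, and 19.5, 17.1, 17.7 and 17.9 at 72 h (-0.71 ± 0.20 SE, edgeR adjusted p = 0.00249). Loop12455 at IL3, a cytokine gene, had 82.6, 53.2, 67.7 and 68.2 at 0 h, 52.0, 57.9, 70.8 and 53.1 at 6 h, and 52.2, 35.1, 58.2 and 43.7 at 72 h (-0.52 ± 0.14 SE, edgeR adjusted p = 0.00167); its 0 h and 72 h libraries overlapped.

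The contact profile at the RUNX1 gene end was the mean log2 normalized count over its 2 loops (loop32170 and loop32183) in each library. It was compared with that of 14599 genes with an end in an anchor. Over the 12 libraries the most alike were LOC124902559 (Pearson r = 0.80), BTNL12P (0.80), LOC124906114 (0.79), LOC107984553 (0.78) and NAP1L1P3 (0.78). The libraries share their depth and scaling across genes, and these r are the highest of many, so they describe likeness only.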

How the data were processed

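The authors deposited raw contact counts per loop and technical replicate in 30 columns, with anchor positions starting from 0, given here from 1; log2 fold changes, p-values and classes in the same table are the authors' own, per the file headers. The submitters' processing notes name Juicer 1.5.6, DESeq2 and the build hg38 without their roles. The loop caller and its settings are not given in the sources used here. No background is subtracted from a count.

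Technical replicates were summed into 12 libraries and fitted in 1 edgeR 4.0.16 model (R 4.3.3; filterByExpr with minimum count 10 and minimum total 15, TMM scaling, quasi-likelihood test, no covariate, prior count of 2, Benjamini-Hochberg adjustment over 24132 loops, threshold 0.05), tested on simulated data. The SE is the log2 fold change over the root of F. The members and lists were chosen with earlier results of these data known, and genes come from RefSeq (all 22 of each list matched). Values by library are given for loops at a RUNX1 end, up to 12 called loops by smallest adjusted p, the 3 with the highest counts and the longest; loop32173, loop32176, loop32181, loop32184 and loop32185, the other called loops, and loop32167, loop32169, loop32188, loop32189, loop32190 and loop32194 were added after their values were seen. The first 3 loops by adjusted p were taken per list, and 5 genes by r. Alternatives tried: a different tool (DESeq2 1.42.0), scaling or filter, a length offset per library (loess, span 0.3), a replicate block, a batch term, fits within replicates, a threshold of 0.01 and leaving out each library. The P1 promoter sequence was not used here.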

Additional observations from a re-analysis of the deposited data

Results flagged for a closer look

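At 0 h, replicate 3 of loop32165 (1660 kb, KCNE2 to the upstream edge) had a normalized count of 16.3, while replicates 1, 2 and 4 lay between 7.97 and 9.10. Of 68 groups of 4 libraries examined, this was the 1 with a library that far from the others, and chance alone would give about 3.4.

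The changes at 72 h and at 6 h differed for 6 loops by the edgeR test of 72 h against 6 h. The differences on the log2 scale were -0.78 for loop32171 (LINC01426 to the upstream sequence), -0.46 for loop32173, -0.68 for loop32191, 0.84 for loop32175 (P2), 0.94 for loop32192 and 0.58 for loop32193.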

How the results depend on the processing

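Among the calls, 5 of 15 at 72 h (loop32171, loop32175, loop32182, loop32192 and loop32193), 1 of 3 at 6 h (loop32196) and 4 of 6 from 6 h to 72 h (loop32171, loop32175, loop32191 and loop32192) held in every fit of all replicates at the 0.05 threshold and without any 1 library; no call changed direction in any setting. Leaving out single libraries gave 11 to 17 loops at 72 h, 2 to 3 at 6 h and 5 to 7 from 6 h to 72 h. At 72 h, 8 loops were called with DESeq2, 7 within replicates 1 and 2, 8 within replicates 3 and 4, and 8 at a threshold of 0.01. At 6 h, 1 was called with DESeq2, 1 after the length correction, 0 within replicates 1 and 2 (edgeR; 3 of the 3 calls had the same direction there), 1 within replicates 3 and 4 and 1 at 0.01. From 6 h to 72 h, 3 were called within replicates 1 and 2. With 72 h replicates 3 and 4 summed, 14, 3 and 6 were called. Summing replicates 3 and 4 at every time, an alternative not planned at first, also gave 14, 3 and 6. With gene ends within 10 kb of an anchor, 23 of 42 partner loops and 11 of 32 target loops were called at 72 h, against 33.6% of all tested loops. DESeq2 called 6 of 19 partner loops. Fits within replicates use fewer libraries, which also gave the calls, so a shared direction there is no separate support. The cause of the other shifts was not tested. Same-numbered libraries deviated together only weakly (correlations of 0.0146 to 0.124), so the numbers were not taken as pairs; with a replicate block 16, 3 and 6 loops were called. Without a filter, 14 loops were called at 72 h, 5 gained and 9 lost. A stricter filter, a mean count of at least 20, left 29 loops of the region. Of these 9 were gained and 6 lost at 72 h, and 1 was gained and 3 lost at 6 h. Depth limits the faint loops: 5 contacts have a 95% interval of 1.62 to 11.7.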
